A study of Mus musculus with 4 samples.

Results

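Matrix metalloproteases and their tissue inhibitors were followed as 10 genes (Mmp2, Mmp3, Mmp8, Mmp12, Mmp13, Mmp14, Mmp19, Timp1, Timp2 and Timp3) across the malignant and host cells of a mouse sarcoma. The genes were found by symbol, and all 10 were listed in both deposited tables, of 17992 genes in the table of malignant cells and 16349 in that of non-malignant cells (18220 in either). They were picked with their levels by cell type and with the digoxin values of Mmp19 in macrophages already seen, so levels and digoxin differences are given here as a description. Tumors were allograft sarcomas of the hind limb on a 129/SvJae background with the conditional Trp53 genotype Trp53flox/flox, which both groups shared. Host mice were injected into the peritoneum with vehicle (PBS) or with digoxin, a cardiac glycoside that blocks the sodium pump, at 2 mg/kg every 24 h. Digoxin was dissolved in DMSO and diluted in PBS. Tumors were taken after dose number 4, and each group held 2 mice. The age of the mice, and whether the allografts came from 1 tumor line or several, are not given in the sources used here. Tumors were dissociated with collagenase, dispase and trypsin at 37°C for 45 min before cells were captured in droplets.

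Expression was measured with 3′ single-cell RNA sequencing, in which each captured RNA molecule carries a unique molecular identifier (UMI). Levels are mean CPM: each gene's UMIs in a cell were scaled to a cell total of 1000000 and averaged over the cells of a population in each mouse. Values are listed for vehicle 1, vehicle 2, digoxin 1 and digoxin 2 in that order unless named, and errors are SDs over the 2 mice of a group. The tables held 3976 to 6269 malignant and 3014 to 3344 non-malignant cells per mouse, at median depths of 46799 to 57658 and 15837 to 16671 UMIs per cell. Cell types carry the names of the deposited annotation, as do the M1, M2 and Highly proliferative M2 groups of macrophages. Trp53 was at 6.56 to 7.71 CPM in malignant and 63.8 to 75.5 CPM in non-malignant cells. Some names went against their markers. Cells labelled Epithelial held summed endothelial markers (Cdh5, Pecam1, Kdr and Tek) of 2176 to 2313 CPM. Their summed epithelial markers (Epcam, Krt8, Krt18 and Cdh1) were at 7.17 to 19.3 CPM. Summed pericyte markers were at 734 to 1042 CPM in them, and summed mast cell markers at 59.4, 183, 3199 and 3900 CPM. Cells labelled Microglia held plasmacytoid dendritic markers (Siglech, Ccr9, Ly6d and Klk1) summing to 4265 to 4754 CPM, against 14.5 to 34.3 CPM for the 2 of 4 microglial markers in the table. The vehicle 2 mouse also stood apart, because its host cells held Xist at 6.09 CPM against 722 to 817 CPM in the other mice, and Ddx3y at 86.0 CPM against 1.72 to 2.14 CPM. Of 31498 cell barcodes, 113 occurred in more than 1 library.

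Matrix metalloproteases are zinc-dependent endopeptidases that are made as inactive precursors and, once their propeptide is removed, cut collagens, elastin, proteoglycans and other proteins of the extracellular matrix. Tissue inhibitors of metalloproteases (Timps) bind the active site of the mature enzymes, and the balance of both sets how fast matrix is remodelled. In tumors the enzymes are known from fibroblasts, tumor cells and macrophages, where they take part in invasion, vessel growth and the release of growth factors from matrix. Of the members, Mmp8 and Mmp13 are collagenases, Mmp2 is a gelatinase, Mmp3 is a stromelysin and Mmp12 is the macrophage metalloelastase. Mmp14 is a membrane-anchored enzyme that activates the Mmp2 precursor together with Timp2. Mmp19 cuts components of basement membranes.

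Mmp13 (chr9:7272514-7283331), Mmp12 (chr9:7344381-7369499), Mmp3 (chr9:7445822-7455975) and Mmp8 (chr9:7558456-7568485) lie within 296 kb of chromosome 9 on the plus strand of GRCm38. The span holds 7 Mmp genes. The other members lie apart, at chr8:92827291-92853420 (Mmp2), chr10:86300372-86349506 (Timp3), chr10:128790910-128800824 (Mmp19), chr11:118301069-118355740 (Timp2, minus strand), chr14:54431612-54445364 (Mmp14) and chrX:20870166-20874735 (Timp1). On the opposite strand, genes overlap Mmp12 (Mmp1b), Mmp19 (Gm47093 and Tmem198b), Timp1 (Syn1) and Timp3 (Syn3), and Cep295nl overlaps Timp2 on its own strand. How UMIs of overlapping genes were assigned is not given in the sources used here.

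RefSeq promoters of GRCm38.p6 were matched for 8 of the 10 members, without Mmp2 and Mmp19. The 100 bases 5′ of each transcription start are shown for the chromosome 9 members, which are neighbours with different patterns of expression, and for Mmp14 and Timp1. Of the matched members, Mmp14, Timp1 and Timp2 had UMIs in each of the 8 types compared below, in every mouse, and Timp2 is not shown. Capitals mark matches to the AP-1 site (TGAGTCA or TGACTCA) and to the GC box (GGGCGG or CCGCCC), each searched on both strands, and the 2 motifs did not overlap. Mmp12 has 2 annotated starts, and both are shown.
Mmp13: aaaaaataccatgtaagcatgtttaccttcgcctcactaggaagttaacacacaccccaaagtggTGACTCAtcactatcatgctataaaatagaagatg
Mmp12, upstream start: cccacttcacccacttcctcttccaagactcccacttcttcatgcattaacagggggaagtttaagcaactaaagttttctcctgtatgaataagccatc
Mmp12, downstream start: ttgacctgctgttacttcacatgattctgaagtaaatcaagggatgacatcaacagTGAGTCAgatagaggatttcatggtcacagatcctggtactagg
Mmp3: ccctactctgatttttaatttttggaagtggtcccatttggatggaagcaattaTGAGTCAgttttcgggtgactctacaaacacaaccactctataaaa
Mmp8: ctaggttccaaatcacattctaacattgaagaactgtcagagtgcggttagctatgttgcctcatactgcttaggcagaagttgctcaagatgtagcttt
Mmp14: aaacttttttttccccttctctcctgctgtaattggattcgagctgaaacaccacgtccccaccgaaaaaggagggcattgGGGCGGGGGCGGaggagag
Timp1: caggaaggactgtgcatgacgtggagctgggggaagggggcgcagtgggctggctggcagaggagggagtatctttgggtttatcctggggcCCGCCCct
These windows are chr9:7272414-7272513, chr9:7344297-7344396, chr9:7347274-7347373, chr9:7445722-7445821, chr9:7558329-7558428, chr14:54431498-54431597 and chrX:20870066-20870165 in that order, all on the plus strand.

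The AP-1 letters began 35 bases before the start of Mmp13, 44 bases before the downstream start of Mmp12 and 46 bases before the start of Mmp3. They were not found within 250 bases of the start of Mmp8 or of the upstream start of Mmp12, nor in the entries of Mmp14, Timp1, Timp2 and Timp3. The GC box letters were found for Mmp14 (19 and 13 bases before the start), Timp1 (8 bases), Timp2 (37 bases) and Timp3 (15 bases), and not in the chromosome 9 members, so the entries of Mmp8 and of the upstream start of Mmp12 held neither motif. Of 32851 RefSeq promoter entries, 4.46% held the AP-1 letters and 32.7% held the GC box letters within 250 bases before the start. A match describes the sequence only.

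The members were highest in different cells of the tumor. Over the 8 deposited types with at least 20 cells in every mouse, Mmp2, Mmp3 and Timp1 were highest in fibroblasts and next in malignant cells, Mmp8 and Mmp12 were highest in macrophages, and Mmp14 was highest in osteoclasts. Timp2 was highest in malignant cells in 3 of 4 mice and in fibroblasts in vehicle 2. For Mmp19 and Timp3 the order turned between the groups, and fibroblasts were highest in both vehicle mice. In both digoxin mice macrophages were highest for Mmp19 and the cells labelled Epithelial for Timp3. No test was made between types, since the deposited types were made from the same cells and genes. Levels were set against the other types for 1 gene at a time, because 3′ counts of different genes are not on a per-length scale.

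**Figure D1:**
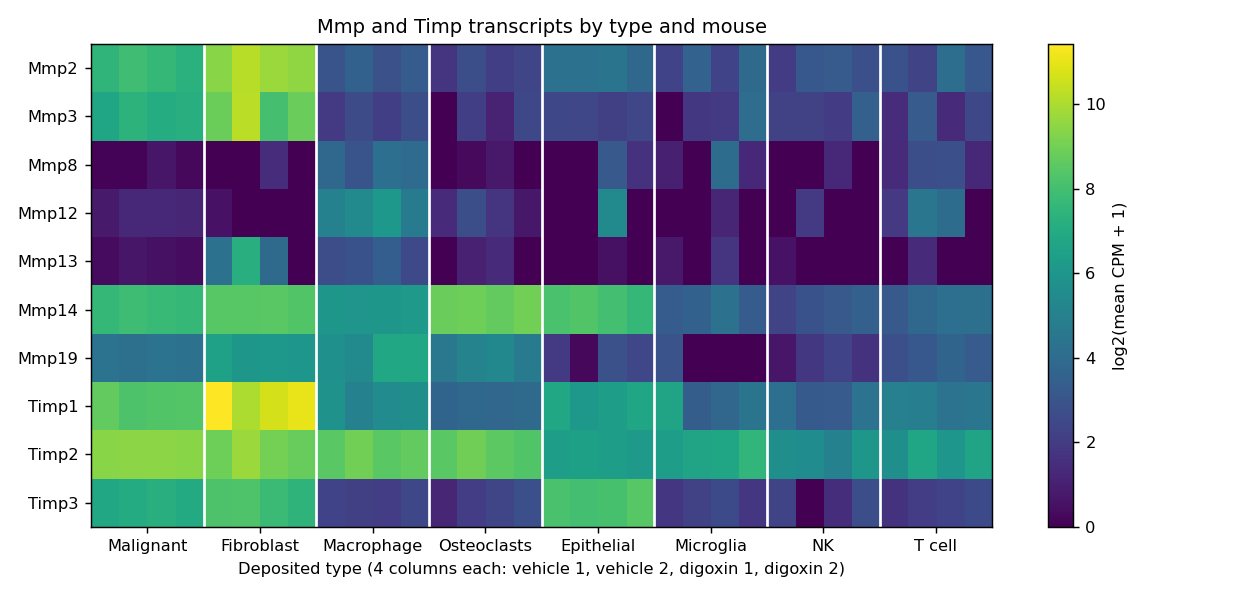
Heat map of log2(mean CPM + 1) for the 10 members (rows) in 8 deposited types (blocks of 4 columns, 1 per mouse). Read along a row, Mmp2 and Mmp3 are bright in fibroblasts and malignant cells, Mmp14 in osteoclasts, and Timp3 in malignant cells, fibroblasts and the cells labelled Epithelial.

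Mmp2, the gelatinase, was at 667, 1180.1, 824 and 747 CPM in fibroblasts and at 175, 238, 194 and 155 CPM in malignant cells. Every fibroblast value lay above every malignant value, with a ratio of means of 4.48. The third type in the order, cells labelled Epithelial, was at 13.1 to 20.3 CPM. Fibroblasts were 31 to 78 cells per mouse, yet they held 57.1% to 83.4% of all non-malignant Mmp2 UMIs. Over the 8 types the genes with the pattern most like Mmp2 were the fibrillar collagen genes Col1a2 (Pearson r = 0.998) and Col1a1 (r = 0.997), and the nearest member was Mmp3 (r = 0.985). These correlations are over 8 type means and share libraries, and they carry no test.

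In macrophages Mmp2 was at 6.15 to 10.6 CPM, which was 3.16% to 5.71% of the malignant level in the 3 mice other than vehicle 2. Ddx3y, a Y-linked gene that the malignant cells carried (43.1 to 49.3 CPM), was found in macrophages of these mice at 3.53% to 5.29% of its malignant level. Mmp3 in macrophages was at 2.50% to 3.80% and Timp3 at 2.24% to 3.56% of their malignant levels. These values lie at or near the share at which Ddx3y of malignant cells appeared in host macrophages, and how much of them was carried over was not tested. Mmp14 in macrophages was at 31.3% to 37.1% of its malignant level and Timp2 at 52.4% to 60.8%, above that share. In the other direction Xist was found in malignant cells at 2.02% to 2.57% of its macrophage level. Mmp12 in malignant cells was at 2.21% to 5.20%, Mmp13 at 4.37% to 6.87% and Mmp8 at 0.618% to 3.64% of their macrophage levels. In digoxin 2, the mouse at 5.20%, a single malignant cell held 206 of the 352 Mmp12 UMIs.

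Mmp3, the stromelysin, was at 469, 1195, 264 and 444 CPM in fibroblasts and at 109, 168, 132 and 148 CPM in malignant cells. Fibroblast values varied more between mice than malignant values, and every fibroblast value lay above every malignant one. The other 6 of the 8 types were at or below 15.7 CPM. The closest patterns over types were those of Lgr5 (r = 0.998) and Pcolce2 (r = 0.997). Mmp3 was spread unevenly over malignant cells. A UMI was found in 41.6%, 44.5%, 41.7% and 42.6% of them, and 27.9%, 34.3%, 32.2% and 36.7% of all Mmp3 UMIs fell in the 1% of cells with the most. For Mmp2 the same 1% share was 5.61% to 6.70%, and for Mmp14 4.68% to 5.95%. One malignant cell of digoxin 2 held 1055 Mmp3 UMIs.

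The 1% of malignant cells with the highest Mmp3 CPM (40 to 63 cells per mouse) are shown by their other genes, as a description of cells chosen by Mmp3. Their mean Mmp3 was 37.3 to 49.9 times that of the remaining malignant cells. Mmp2 was 1.84 to 2.61 times, Mmp14 1.64 to 1.90 times, Mmp19 2.35 to 2.93 times and Timp1 1.53 to 3.43 times as high as in the remaining cells. Timp3 was 1.38 to 2.57 times, Timp2 1.43 to 1.53 times and Mmp12 0 to 1.88 times the level of the remaining cells. Mmp13 was 7.66 to 18.3 times that level, at only 1.98 to 9.59 CPM in the cells chosen by Mmp3, and Mmp8 was at 0 CPM in them. Trp53 in these cells was at 8.05 to 10.5 CPM, near the malignant level and far below the host level. Fibroblast markers were also higher in them, with Pdgfra at 2.19 to 3.33 times, Col1a1 at 1.88 to 2.25 times and Dcn at 1.75 to 1.87 times the remaining cells. Lum was at 47.4 CPM in them in vehicle 2, against 3.12 CPM in the remaining cells, and at 0.613 to 1.40 CPM in the other 3 mice. Xist was at 3.20 to 9.07 CPM in them in the 3 mice with Xist-bearing hosts, against 15.4 to 17.0 CPM in the remaining malignant cells. These cells were shallower, with medians of 34362.5 to 37143 UMIs against 46922 to 57975.

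Mmp13, a collagenase of connective tissue and bone, had its highest mean in fibroblasts, but 1 cell set that value. Its levels there were 18.9, 148, 14.6 and 0 CPM, and in vehicle 2 a single cell held 89 of the 96 UMIs. Without the cell with the most UMIs in each mouse, fibroblast Mmp13 was at 11.2, 7.62, 4.45 and 0 CPM. In macrophages, where Mmp13 had 239 to 403 UMIs per mouse, its levels were 5.50, 6.27, 9.77 and 4.66 CPM. Macrophages held 69.6% to 98.4% of the non-malignant Mmp13 UMIs. In malignant cells it was at 0.260 to 0.614 CPM. The genes most like it over types were Apoc1 (r = 0.989) and Col14a1 (r = 0.980).

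Mmp8, the neutrophil collagenase, and Mmp12, the metalloelastase, were macrophage transcripts in these tables. Macrophage Mmp8 was at 13.0, 6.93, 16.9 and 15.1 CPM and Mmp12 at 31.6, 42.4, 67.9 and 25.6 CPM, while malignant cells held at most 0.618 and 1.504 CPM. Macrophages gave 94.0% to 99.9% of the non-malignant Mmp12 UMIs and 69.1% to 93.7% of those of Mmp8. Neutrophils were few, at 11, 5, 34 and 23 cells, and held Mmp8 at 194, 27.8, 463 and 234 CPM, above the macrophage level in each mouse. In the cells labelled Epithelial of digoxin 1, 1 cell held 94 of 99 Mmp12 UMIs, and without it the level fell from 43.2 to 1.72 CPM. The patterns most like Mmp8 over types were D17Wsu92e (r = 0.981) and Gm15880 (r = 0.968), and those most like Mmp12 were Sptb (r = 0.960) and Klhl41 (r = 0.958).

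Mmp14, the membrane-type enzyme, was expressed in several types. Osteoclasts, the bone-resorbing cells of the macrophage lineage, held 456, 471, 407 and 509.7 CPM, and fibroblasts 352, 350.2, 359.8 and 319 CPM. Cells labelled Epithelial followed at 282, 315, 255 and 197 CPM and overlapped the malignant cells at 192 to 237 CPM. Macrophages held 61.1 to 71.4 CPM, and T cells, Microglia-labelled cells and NK cells 4.07 to 18.6 CPM. In vehicle 1, digoxin 1 and digoxin 2, Mmp14 in NK cells was at 2.11%, 3.85% and 5.46% of the malignant level, where Ddx3y was at 4.31%, 3.65% and 1.42%. The osteoclast level did not overlap that of fibroblasts in any mouse. The same osteoclasts held Mmp9, a gelatinase outside the 10 members, at 5450 (vehicle 1), 9729 (vehicle 2), 5033 (digoxin 1) and 6118 (digoxin 2) CPM. The patterns nearest to Mmp14 were Ext1 (r = 0.988) and Mpp5 (r = 0.986).

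Among the inhibitors, Timp1, a secreted and inducible inhibitor, was at 2747, 1033, 1628 and 2128 CPM in fibroblasts. Malignant cells followed at 403, 298, 320 and 325 CPM, and neither overlapped the cells labelled Epithelial at 66.7 to 109 CPM. Vehicle 2 had the lowest Timp1 of the 4 mice in fibroblasts, malignant cells and macrophages. Vehicle 2 was also the mouse whose host cells held Xist at 6.09 CPM, and the part of this in the Timp1 values was not tested. Timp2, which takes part in Mmp2 activation, was even between mice in malignant cells at 673, 697, 691 and 674 CPM. Fibroblasts (432 to 822 CPM), macrophages (362 to 512 CPM) and osteoclasts (315 to 499 CPM) followed, each overlapping its neighbour. Timp3, which stays bound to matrix, was at 280.4, 259.5, 276 and 351 CPM in cells labelled Epithelial and at 300.1, 309, 221 and 170.1 CPM in fibroblasts. Malignant cells held 110.1, 129, 145 and 127 CPM, and the other 5 of the 8 types were at or below 5.89 CPM. The nearest patterns were C1s1 (r = 0.990) and Klhl13 (r = 0.989) for Timp1, Dpp7 (r = 0.975) for Timp2, and Jam3 (r = 0.998) and Tcf7l1 (r = 0.996) for Timp3.

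Within macrophages the members divided by sub-cluster. Mmp8 was at 27.6, 23.0, 34.4 and 34.8 CPM in M1 cells and at 0.148, 0.383, 0.403 and 0.492 CPM in M2 cells, a ratio of means of 84.0. The M2 values rested on 3, 10, 8 and 14 UMIs, and the ratio ran from 59.9 to 186 between mice. Mmp12 was at 58.2, 129.6, 133 and 53.2 CPM in M1 and at 4.64, 5.50, 5.32 and 1.96 CPM in M2, a ratio of 21.5. For Mmp13 the ratio was 5.87, for Mmp19 2.54 and for Timp1 1.64. M1 lay above M2 in 4 of 4 mice for each of these 5 genes. Timp2 ran the other way, at 183, 229.6, 179 and 219 CPM in M1 and at 612, 682, 599.8 and 636 CPM in M2, a 3.12-fold higher level in M2. Mmp14 differed little, at 65.0 to 74.2 CPM in M1 and 54.9 to 71.2 CPM in M2. In Highly proliferative M2 cells Mmp8 was at 2.77, 0.459, 3.79 and 0.611 CPM, between M2 and M1, and Timp2 was nearer M1 (258 to 287 CPM). They held Mmp12 at 22.4, 15.3, 22.6 and 14.9 CPM, between M1 and M2.

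**Figure D2:**
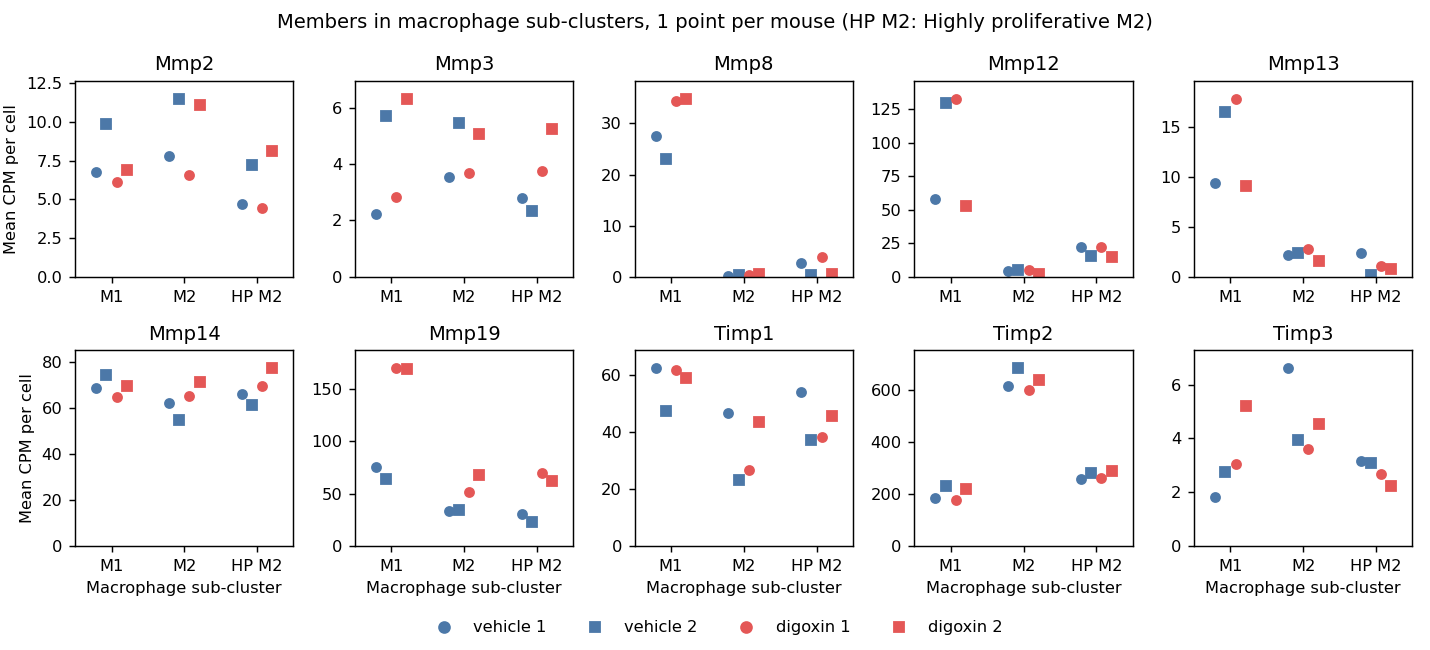
Mean CPM per cell of each member (1 panel per gene, axes from 0 and scaled per gene) in M1, M2 and Highly proliferative M2 macrophages, 1 point per mouse with vehicle in blue and digoxin in red. Mmp8, Mmp12 and Mmp13 sit high in M1, Timp2 sits at 599.8 to 682 CPM in M2, and both digoxin mice lie above both vehicle mice for Mmp19 in all 3 sub-clusters.

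M1 transcripts were also spread unevenly. The 1% of M1 cells with the most UMIs held 34.6% to 54.9% of the Mmp12 UMIs and 64.4% to 74.5% of the Mmp13 UMIs, against 8.25% to 10.3% for Mmp14 and 12.4% to 14.5% for Timp2. Mmp13 rested on 213, 174, 339 and 196 UMIs in M1, and low counts by themselves raise this share. After thinning to 5000 UMIs per cell, Mmp13 was detected in 3.41%, 5.15%, 10.1% and 8% of the M1 cells with Mmp12. Among M1 cells without Mmp12 the values were 2.00%, 2.80%, 1.99% and 1.76%. The shared cells numbered 3, 5, 14 and 6, so the difference rests on few cells. This pair was singled out after its values were seen among 6 pairs. Of the other 5, Mmp8 was found more often in cells with Mmp19 in 4 of 4 mice, and 4 pairs went both ways between mice. Mmp12, for one, was found in 8.97%, 11.5%, 20% and 4.65% of M1 cells with Mmp8 and in 8.02%, 13.96%, 9.43% and 6.71% of those without.

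**Figure D3:**
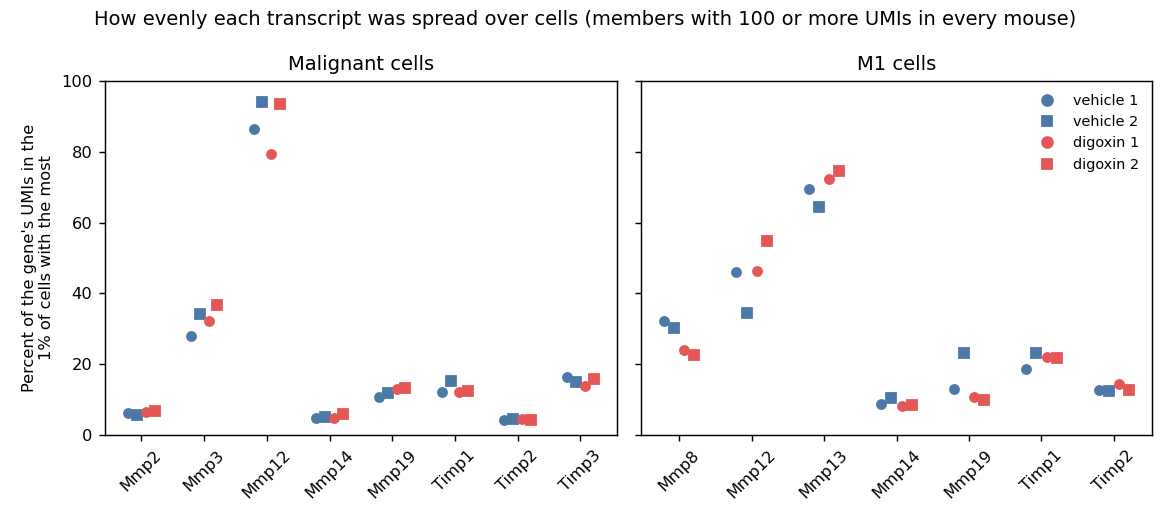
Percentage of a gene's UMIs that fell in the 1% of cells with the most, for malignant cells (left) and M1 macrophages (right), 1 point per mouse, for members with at least 100 UMIs in every mouse. Mmp3 in malignant cells and Mmp12 and Mmp13 in M1 cells stand above Mmp14 and Timp2. Malignant Mmp12 (79.5% to 94.0%) does too. It rests on 170 to 564 UMIs per mouse, of which 1 cell held 302 of 564 in vehicle 2 and 206 of 352 in digoxin 2. Mmp13 in M1 rests on 174 to 339 UMIs per mouse. Low counts by themselves raise this share.

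To ask whether digoxin changed the members, each population with at least 20 cells in every mouse was fitted alone with limma on log2(mean CPM + 1), and p-values were adjusted by the Benjamini-Hochberg method over all genes tested. At an adjusted p of 0.05, 0 members passed by limma in any of the 12 populations fitted. Over all genes the share passing was 0.467% in cells labelled Epithelial, 0.0765% in NK cells, 0.0128% in osteoclasts and 0% in the other 9. At an unadjusted p under 0.05, limma gave 0 of 10 members in malignant cells (585 of 17138 genes), 3 in all non-malignant cells (581 of 14879), 2 in macrophages (555 of 13734) and 2 in M1 (942 of 12182). It gave 1 of 9 in M2 (286 of 12545), 2 of 10 in Highly proliferative M2 (451 of 11459), 3 of 8 in fibroblasts (276 of 9292), 1 of 6 in cells labelled Epithelial (593 of 10272) and 1 of 1 in cells labelled Microglia (278 of 5818). It gave 0 of 4 in osteoclasts (498 of 7803), 0 of 5 in NK cells (574 of 9147) and 0 of 6 in T cells (382 of 8930). edgeR called 0 members, and DESeq2 called Mmp19 as given below. A second description is whether both digoxin mice lay on 1 side of both vehicle mice. For 2 against 2 mice this was common. It held for 29.3% of all genes in malignant cells, 39.3% in M1, 26.6% in M2, 30.1% in Highly proliferative M2 and 29.5% in fibroblasts. By direction, both digoxin mice were below in 17.3% of genes in all macrophages, where 0 of 10 members were. They were above in 13.6%, and 2 of 10 members were, Mmp19 and Mmp8. Both were above in 17.8% of genes in cells labelled Epithelial (1 of 6 members, Mmp19), 21.6% in osteoclasts (0 of 4) and 16.7% in cells labelled Microglia (1 of 1, Timp2).

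In malignant cells all 10 members passed the filter on low counts, and 1, Mmp8, had groups that did not overlap, against 29.3% of all genes. Its values of 0.0802, 0.0712, 0.618 and 0.176 CPM rested on 25, 21, 108 and 33 UMIs. The summed neutrophil markers (S100a8, S100a9, Csf3r, Retnlg and Cxcr2) in malignant cells were at 11.5, 11.7, 31.6 and 19.5 CPM, higher in both digoxin mice, and their part in the Mmp8 values was not tested. Timp2 was at 685 ± 17.2 CPM (SD, n = 2) with vehicle and 682 ± 11.996 CPM (SD, n = 2) with digoxin. Mmp14 was at 215 ± 31.4 and 201 ± 12.4 CPM, and Mmp2 at 206 ± 44.4 and 175 ± 27.6 CPM. By limma the log2 differences of the 10 members ran from -0.23 (Mmp2, SE 0.18) to 0.36 (Mmp8, SE 0.14), each with an adjusted p of 1.00.

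Mmp19 had the smallest unadjusted p of all genes in the pooled macrophages, in M1 and in Highly proliferative M2, and its digoxin values in macrophages were known when the genes were picked. In M1 cells it was at 75.3, 64.0, 169 and 168 CPM. Both digoxin mice lay near each other and 2.43 times above the vehicle mean. In M2 cells the values were 33.9, 34.0, 51.4 and 68.0 CPM, and in Highly proliferative M2 cells 30.9, 23.3, 69.4 and 62.4 CPM, with ratios of 1.76 and 2.43. In every sub-cluster the groups were apart. Fibroblasts, the other type with a like level, were at 90.5, 65.2, 67.9 and 63.8 CPM, malignant cells at 19.4, 17.6, 19.5 and 17.9 CPM, and osteoclasts at 22.6, 33.9, 38.8 and 25.7 CPM, and in all 3 the groups overlapped. Neutrophils held 31.9, 50.6, 65.4 and 94.2 CPM on 5 to 34 cells. T cells, at 5.89, 7.96, 11.8 and 8.78 CPM, were low with groups apart. Summed macrophage markers (Adgre1, Csf1r, C1qa, Cd68 and Fcgr1) were at 187, 671, 290 and 352 CPM in T cells. In macrophages these markers were at 4726 to 6566 CPM. How much of the T cell Mmp19 was carried over from macrophages was not tested. Cells labelled Epithelial, at 2.84, 0.203, 6.13 and 4.46 CPM, held 14, 1, 17 and 12 UMIs of Mmp19. Without the cell with the most in each mouse they were at 1.38, 0, 2.18 and 1.24 CPM, and the groups overlapped.

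**Figure D4:**
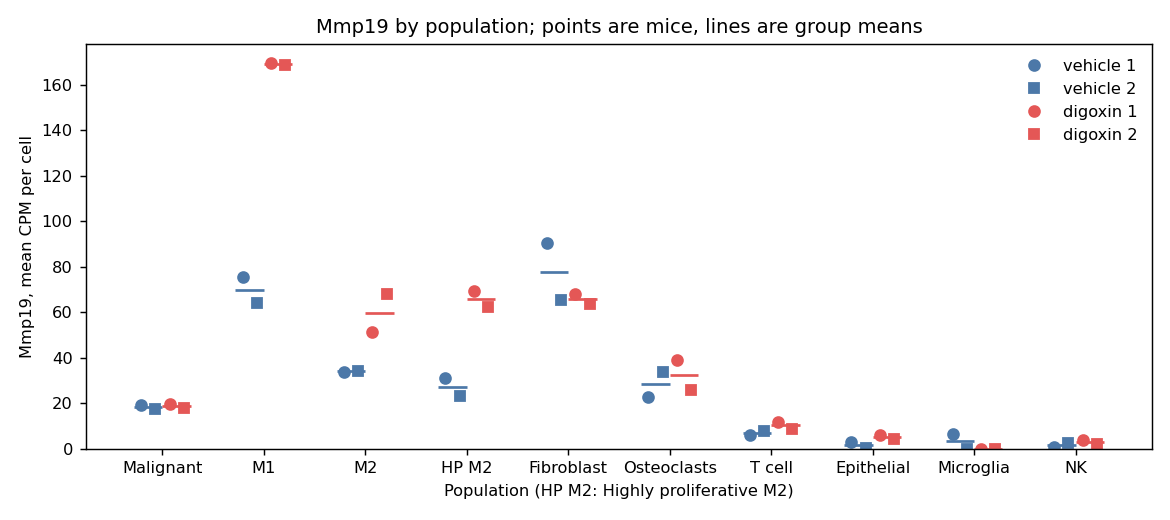
Mean CPM of Mmp19 in 10 populations, 1 point per mouse with vehicle in blue and digoxin in red, and lines at the mean of the 2 mice. M1 points sit at 64.0 and 75.3 CPM with vehicle and at 168 and 169 CPM with digoxin, while the groups overlap in malignant cells, fibroblasts and osteoclasts.

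By limma the log2 difference of Mmp19 was 1.27 (SE 0.11) in M1 with an adjusted p of 0.142, and Mmp19 had the smallest unadjusted p of the 12182 genes tested. It was 0.78 (SE 0.18, adjusted p = 1.00) in M2 and 1.26 (SE 0.16, adjusted p = 0.605) in Highly proliferative M2, where it also ranked 1 of 11459 genes. The call differed between tools. DESeq2 on summed UMIs gave adjusted p-values of 8.33e-13 in M1 (42 of 12182 genes called) and 2.56e-09 in Highly proliferative M2 (16 of 11459). The quasi-likelihood test of edgeR called 0 members in each. Mmp19 was picked with its macrophage values known, so none of these p-values is an independent test of it. Over the alternatives run, the adjusted p of Mmp19 in M1 ranged from 8.33e-13 to 0.231. Fits without 1 mouse leave a group of 1, which is assumed to vary like the other group. In such fits by limma it was 0.00565 in M1 without vehicle 1 (224 of 12642 genes called), 0.000893 without digoxin 1 (94 of 12600) and 0.00298 without digoxin 2 (32 of 12438). It was 0.157 without vehicle 2, the mouse that stood apart, where the log2 difference was 1.16 and 0 of 12605 genes were called. In Highly proliferative M2 it was 5.33e-06 without vehicle 1 (256 of 11739 genes called) and 0.00142 without vehicle 2 (11 of 11916). The difference of the digoxin effect between M1 and M2 was 0.49 on the log2 scale (SE 0.16) with an adjusted p of 0.820 by limma. Between all non-malignant and malignant cells it was 1.17 (SE 0.11, adjusted p = 0.683 by limma), and in fits with a lone vehicle mouse it was 0.00746 without vehicle 1 (217 of 14849 genes called) and 0.0487 without vehicle 2 (9 of 14781). With all 4 mice, 0 members and 0% of all genes passed in either test of a difference.

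The Mmp19 values differed both in how many cells held a UMI and in how many UMIs such cells held. At 5000 UMIs per cell, 23.7% (exact 95% binomial interval 21.2% to 26.4%), 19.03% (16.2% to 22.1%), 39.0% (36.3% to 41.7%) and 40.2% (37.3% to 43.1%) of M1 cells held Mmp19. This left out 7 to 12 shallower cells per mouse, and the intervals cover counting error only. Without thinning the shares were 44.9%, 33.3%, 60.0% and 60.2%. M1 cells with Mmp19 held on average 2.69, 2.72, 4.15 and 4.12 UMIs of it. The thinned shares were 12.8%, 13.8%, 18.6% and 22.8% in M2 cells and 12.5%, 11.2%, 26.0% and 20.7% in Highly proliferative M2 cells. NK cells, which are not known for Mmp19, held it in 0 of 139, 0 of 67, 1 of 147 and 1 of 136 thinned cells. The counts of 0 allow up to 2.16% and 4.48% of thinned cells to hold a UMI, which is no limit on the share of cells expressing the gene. Median depths were 10992 to 12449 UMIs in NK cells and 12918 to 14702 UMIs in M1 cells. The genes most like Mmp19 over types were Reps2 (r = 0.954) and Tgfbi (r = 0.948).

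Mmp8 was the other member with groups apart in M1 cells, where 10 members were tested and 3 did not overlap, against 39.3% of all genes. Its vehicle values were 27.6 and 23.0 CPM, and its digoxin values 34.4 and 34.8 CPM, a log2 difference of 0.44 (SE 0.13) with an adjusted p of 0.521 by limma. At 5000 UMIs per cell, 7.17%, 7.39%, 11.6% and 11.1% of M1 cells held it. The 5 neutrophil markers summed to 64.5, 61.8, 120.3 and 89.1 CPM in M1, higher in both digoxin mice, with 4 of 5 above 1 CPM, and their part in the Mmp8 values was not tested. The share of M1 cells was 45.3%, 29.0%, 47.6% and 42.5% of macrophages, and vehicle 2 was lowest in this share and in macrophage Mmp8. When vehicle 1 was left out, vehicle 2, with the fewest M1 cells, was the lone vehicle mouse. The limma call of Mmp8 in macrophages came from that fit, where calls over all genes rose as well. The part of the M1 share in the macrophage Mmp8 values was not tested. Timp3 was the remaining M1 gene with groups apart, at 1.85, 2.74, 3.06 and 5.20 CPM. In vehicle 1, digoxin 1 and digoxin 2 this was 1.68%, 2.10% and 4.10% of the malignant level. Ddx3y in M1 was at 3.01%, 3.43% and 4.28% of its malignant level, and the carried-over part of Timp3 was not tested. Mmp12 in M1 was as high in vehicle 2 (129.6 CPM) as in digoxin 1 (133 CPM), and Mmp13 followed the same order of mice.

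In M2 cells 9 members were tested and 2 had groups apart, Mmp19 and Mmp14, against 26.6% of all genes. Mmp14 was at 62.1, 54.9, 65.2 and 71.2 CPM, a log2 difference of 0.22 (SE 0.15). In Highly proliferative M2 cells 4 of 10 had groups apart, against 30.1%. Mmp14 was at 66.3, 61.5, 69.7 and 77.3 CPM there. Mmp3, at 2.81, 2.34, 3.74 and 5.25 CPM, was higher with digoxin, on 28, 15, 26 and 54 UMIs. Timp3, at 3.15, 3.08, 2.68 and 2.24 CPM, was lower, on 28, 18, 22 and 26 UMIs. How much of these low values was carried over from malignant cells was not tested. Timp2 differed by -0.06 (SE 0.13) in M2 and 0.03 (SE 0.10) in Highly proliferative M2 on the log2 scale.

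**Figure D5:**
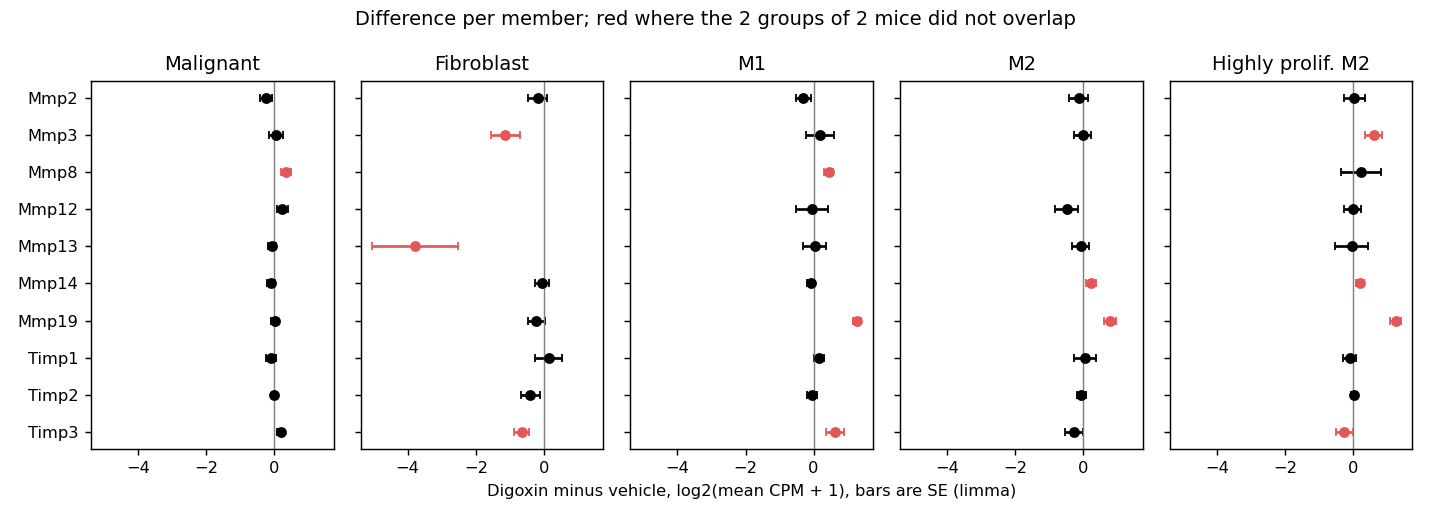
Difference between digoxin and vehicle in log2(mean CPM + 1) for each member that passed the low-count filter, with SE bars from limma, in 5 populations. Red marks members whose groups of 2 mice did not overlap. Mmp19 lies at 1.27 in M1, 0.78 in M2 and 1.26 in Highly proliferative M2, and fibroblast Mmp13 lies at -3.79 with an SE of 1.27.

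In fibroblasts 8 members passed the filter, and 3 had groups apart, against 29.5% of all genes. All 3 were lower with digoxin, where 19.4% of all genes were. Timp3 was at 300.1, 309, 221 and 170.1 CPM, which by limma was -0.65 on the log2 scale (SE 0.22) with an adjusted p of 0.999, and its groups stayed apart without the cell with the most UMIs in each mouse (235, 288, 209 and 114 CPM). Mmp3 was at 469, 1195, 264 and 444 CPM and differed by -1.13 on the log2 scale (SE 0.42) with an adjusted p of 0.999 by limma. Without its top cell in each mouse its values were 354, 1083, 223 and 383 CPM, and the groups overlapped. Mmp13 rested on 2 to 5 cells with a UMI in the first 3 mice and on none of 49 in digoxin 2. Vehicle 2 held the highest Mmp2, Mmp3, Mmp13, Timp2 and Timp3 and the lowest Timp1 of the 4 mice, on 31 fibroblasts at a median of 18866 UMIs. When vehicle 1 was left out, so that vehicle 2 stood alone, limma called 5 of 8 members in fibroblasts and 462 of all 9847 genes tested. Timp1 was then higher with digoxin by 0.85 on the log2 scale, and Mmp2 (-0.59), Mmp3 (-1.80), Mmp13 (-5.24) and Timp2 (-0.80) were lower. These calls compare the digoxin mice with vehicle 2 and were not made with both vehicle mice.

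Of the remaining types, cells labelled Epithelial had 3 of 6 tested members with groups apart, against 34.1% of all genes. Mmp14 there was at 282, 315, 255 and 197 CPM, and by limma it differed by -0.41 on the log2 scale (SE 0.15) with an adjusted p of 0.654. Summed mast cell markers in these cells were at 59.4, 183, 3199 and 3900 CPM, higher in both digoxin mice, and their part in the Mmp14 values was not tested. Timp2 there was at 83.8, 90.0, 81.6 and 68.8 CPM, and its difference was of the opposite sign by edgeR and DESeq2. T cells had 3 of 6 members apart (33.3% of all genes), NK cells 1 of 5 (36.0%), cells labelled Microglia 1 of 1 (32.9%) and osteoclasts 0 of 4 (37.4%). The T cell genes were Timp1, at 30.5, 28.9, 19.3 and 21.3 CPM, with Mmp14 (8.26, 13.0, 17.0 and 17.4 CPM) and Mmp19. T cell Timp1 was at 6.04% to 7.56% and Mmp14 at 4.29% to 9.07% of the malignant level in the 3 mice other than vehicle 2. In vehicle 1, digoxin 1 and digoxin 2 the T cell share of Ddx3y was 5.06%, 7.09% and 3.20%, that of Mmp14 4.29%, 8.11% and 9.07%, and that of Timp1 7.56%, 6.04% and 6.56%. Both members were near the Ddx3y share in some mice and above it in others. In all non-malignant cells together 4 of 10 members had groups apart, against 33.0% of all genes: Mmp19 and Mmp8 were higher and Mmp2 and Mmp3 lower with digoxin. The 5 neutrophil markers summed to 164, 52.8, 1311 and 237 CPM in these cells, and neutrophils gave 5.35%, 0.529%, 24.4% and 13.3% of the Mmp8 UMIs, higher in both digoxin mice in each measure. Their part in the pooled Mmp8 values was not tested beyond the macrophage and M1 values above. Fibroblasts, at 78, 31, 45 and 49 cells, held 83.4%, 57.1%, 75.2% and 68.0% of the non-malignant Mmp2 UMIs. They held 89.1%, 75.5%, 70.5% and 64.3% of those of Mmp3. For Mmp2 the groups overlapped in fibroblasts and in macrophages. The part of fibroblast numbers in the pooled Mmp2 and Mmp3 values was not tested.

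Other genes of the pathway were read from 4 lists of 45 genes in all, of which 38 were in both tables, and 0 passed in any list in malignant cells or in M1, M2 or Highly proliferative M2 macrophages. In M1 cells 6 of the 8 activators, inhibitors and clearance genes were tested, and all 6 (Itgav, Cd44, Furin, Bsg, Lrp1 and Itgb3) were higher in both digoxin mice, as were 15.3% of all genes. Their median log2 difference was 0.31, and that of all genes tested was -0.02. Furin, the convertase that activates Mmp14, was at 99.3, 112, 145 and 135 CPM (log2 difference 0.40, SE 0.11). Lrp1, the endocytic receptor that clears metalloproteases and their inhibitors, was at 279, 267, 353 and 350.7 CPM (0.36, SE 0.09). Of the plasminogen activator system 6 of 7 genes were tested. Serpinb2 and Plaur were higher in both digoxin mice, and Plau was lower in both, as were 24.0% of all genes. Plaur, the urokinase receptor, was at 365, 390.1, 464 and 534 CPM (0.40, SE 0.11). The ADAM and ADAMTS proteases had a median of 0.14 over 9 of 14 genes, and the other metalloproteases 0.28 over 3 of 16.

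In malignant cells the median log2 difference of all genes was -0.01. The ADAM and ADAMTS proteases had a median of -0.09, and 6 of 14 were lower in both digoxin mice (Adam15, Adam19, Adamts4, Adamts5, Adamts12 and Adamts15) while Adam8 was higher, against 16.5% and 12.8% of all genes. The medians were 0.02 for the other metalloproteases and -0.08 for activators, inhibitors and clearance genes. In M2 cells the last list had a median of 0.08 and in Highly proliferative M2 cells of 0.12, where all genes were at 0.02 in both, and Furin and Lrp1 were the 2 of 6 tested genes higher in both digoxin mice in each, as were 15% of all genes in M2 and 17.4% in Highly proliferative M2. Itgb3, higher in both digoxin mice in M1, was lower in both in M2.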

How the data were processed

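Single-cell 3′ RNA sequencing libraries of 4 mice were analysed. The submitters' processing notes name Cell Ranger 3.0.2, Seurat 3.0.2 and mm10, without roles. The authors deposited natural log values, ln(1 + UMIs per 10000), per the values in the tables, and the deposited UMI count per cell turned 100% of values above 0 back into whole counts within 0.01. Cells, types and sub-clusters were used as deposited, and the vehicle library numbered 3 in its cell names is vehicle 2 per the deposited cell table.

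Per mouse and population, CPM was averaged over cells, genes were kept by filterByExpr on summed counts, and log2(mean CPM + 1), which understates changes of low genes, was fitted with limma 3.58.1 (R 4.3.3) with a variance trend. Benjamini-Hochberg adjustment at 0.05 ran over all genes tested. Alternatives were edgeR 4.0.16, DESeq2 1.42.0, pseudocounts of 0.1 and 10, no filter, a replicate block, each mouse left out, and, added after seeing the data, a crossed block, cells marked by Scrublet (scanpy 1.11.5) left out, and top cells left out. Scrublet marked 1404 of 31611 cells (4.44%), which were kept. The fits were tested on simulated data with 200 changed genes. All 10 members are named, with up to 2 genes most like each over types, and other genes only where a list or a level turns on them. Members, lists and tests were chosen with earlier results of these data known. Coordinates are from GENCODE M21 and RefSeq. One further allele of the tumor genotype and some genes of the lists are not reported here.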

Additional observations from a re-analysis of the deposited data

How the results depend on the processing

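The count of members passing was 0 in all populations with limma, and edgeR, both other pseudocounts, no filter and leaving out the cells marked by Scrublet kept it at 0. DESeq2 called 1 member, Mmp19, in all non-malignant cells, macrophages, M1 and Highly proliferative M2. Leaving out single mice gave 0 to 1 member in all non-malignant cells, 0 to 2 in macrophages, 0 to 1 in M1, 0 to 1 in Highly proliferative M2, 0 to 6 over the other types, and 0 to 1 for the difference between non-malignant and malignant cells. These fits leave a group of 1 mouse, assumed to vary like the other group, and without vehicle 1 limma called 27 genes in all non-malignant cells, 132 in macrophages, 224 in M1, 256 in Highly proliferative M2, 462 in fibroblasts and 217 for the difference between non-malignant and malignant cells, where all mice gave 0. With a mouse left out, the count ran from 3 to 341 in cells labelled Epithelial and from 12 to 142 in NK cells. Calls also rose without vehicle 1 in malignant cells, M2, T cells, cells labelled Microglia and for the difference between M1 and M2. The cause of these shifts was not tested. With a replicate block 0 members passed in each population. Same-numbered mice deviated in opposite directions in malignant cells (correlation of deviations -0.364) and in cells labelled Microglia (-0.143), where a crossed replicate block called 0 of 17138 and 40 of 5818 genes, against 0 and 0 without a block. Counts over all genes moved more. DESeq2 called 45 genes in malignant cells, 30 in all non-malignant cells, 20 in macrophages, 42 in M1, 9 in M2, 16 in Highly proliferative M2 and 1 each in fibroblasts and Microglia-labelled cells, where limma called 0. In cells labelled Epithelial limma called 48, against 0 with edgeR, 15 with DESeq2, 18 with a pseudocount of 0.1, 6 without the filter, 28 without marked cells and 85 with the replicate block. The replicate block gave 23 genes in NK cells (7 without it; 17 with edgeR, 0 without marked cells), 57 in T cells (0), 3 in osteoclasts (1; 0 with edgeR, 2 with DESeq2) and 2 in all non-malignant cells (0). A pseudocount of 10 gave 2 in Microglia-labelled cells. Among 34 log2 differences, 17 of 370 refits passed the threshold where the main one had not, and 6 changed sign. Of those, Timp2 in cells labelled Epithelial turned from -0.21 to 0.14 with edgeR and 0.15 with DESeq2. Mmp19 in malignant cells, at 0.014, turned to -0.00060 with edgeR, -0.053 without vehicle 2, -0.044 without digoxin 1 (0.081 without vehicle 1, the highest with a mouse left out) and -0.033 without the cells marked by Scrublet. By the mean over the 4 mice, all 10 members had the same highest type with CPM of summed UMIs and without marked cells, although for Mmp19 and Timp3 that type differed between the vehicle and the digoxin mice.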
